A study of Mus musculus with 6 samples.

Results

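Metalloproteinase and TIMP genes were followed in femoral marrow RNA of P2rx7 knockout and wild-type mice: 7 matrix metalloproteinase genes (Mmp2, Mmp3, Mmp8, Mmp12, Mmp13, Mmp14 and Mmp19) and 3 genes of their tissue inhibitors (Timp1, Timp2 and Timp3). The 10 genes were taken by symbol from a table of 55291 genes, and each symbol matched 1 row. The study set 3 mice labelled P2rx7 knockout (here knockouts A, B and C) against 3 wild-type mice (WT 1, 2 and 3), all aged 6 to 8 weeks, with 1 RNA-seq library of flushed femoral marrow per mouse. P2rx7 is the gene of a channel that opens on extracellular ATP. The question put in the design text is how loss of P2rx7 acts on bone. The sources used here give no strain, sex or design of the knockout allele, and the knockout and wild-type mice are labelled by genotype alone.

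Matrix metalloproteinases are zinc-dependent enzymes that cleave collagens and other proteins of the extracellular matrix. They are made as inactive precursors, held shut by a cysteine in the propeptide, and the TIMP proteins block the active enzymes by binding at the catalytic site. In bone, MMP13 is a collagenase of osteoblasts and hypertrophic chondrocytes, MMP14 is a membrane-bound collagenase that also activates the MMP2 precursor with TIMP2 as a bridge, and MMP8 is the collagenase stored in neutrophil granules.

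The libraries held 18716704 to 23575652 counts. P2rx7 transcripts were at 6.63, 6.37 and 6.24 FPKM (counts scaled to exon length and library size, as deposited) in knockouts A, B and C, against 10.1, 10.2 and 10.5 FPKM in WT 1, 2 and 3, a log2 fold change of -0.67 (SE 0.05, edgeR adjusted p = 0.0109). P2rx7 reads thus remained in every knockout. Traces of other tissues split the libraries: the growth hormone gene Gh gave 23, 0 and 0 counts in the knockouts A, B and C, against 54, 82 and 75 in WT 1, 2 and 3, and Alb, the gene of serum albumin, gave 0, 46 and 36, against 0 in each wild type. Genes that define the red cells of whole marrow were near 0. The haemoglobin genes Hbb-bs, Hbb-bt, Hba-a1 and Hba-a2 had 0 to 5 counts in a library. Col1a1, the main chain of type I collagen, was at 1165 to 1620 FPKM, and C1qb, a complement gene of macrophages, at 1717 to 2011 FPKM. The values below are thus those of RNA with abundant fibroblast-type and macrophage transcripts and almost none of red cells. In such bulk RNA, fewer cells of a type and less RNA per cell cannot be told apart.

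In these libraries TIMP transcripts outweighed those of the metalloproteinases. The summed level of the 3 inhibitor genes was 637, 550.1 and 559.8 FPKM in knockouts A, B and C, against 613, 779 and 684 FPKM in WT 1, 2 and 3. The summed level of the 7 metalloproteinase genes was 278, 288 and 312 FPKM in knockouts, against 269, 277 and 330.1 FPKM in wild types. The ratio of the sums, metalloproteinase over inhibitor, was 0.436, 0.524 and 0.558 in knockouts and 0.439, 0.356 and 0.483 in wild types, and the genotypes overlapped.

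Per length, and averaged over the 6 libraries, the order of levels ran from Timp2 at 393 FPKM through Timp1 at 202, Mmp2 at 112, Mmp13 at 75.6, Mmp14 at 73.2, Timp3 at 42.1, Mmp19 at 16.6, Mmp8 at 12.8 and Mmp12 at 2.48 to Mmp3 at 0.0709 FPKM. Neighbours whose ranges over the 6 libraries overlapped were Mmp2 and Mmp13, Mmp13 and Mmp14, Mmp14 and Timp3, and Mmp19 and Mmp8. On GRCm38, Mmp2 lies at chr8:92827291-92853420, Mmp14 at chr14:54431612-54445364, Mmp19 at chr10:128790910-128800824, Timp1 at chrX:20870166-20874735, Timp3 at chr10:86300372-86349506, all on the plus strand, and Timp2 at chr11:118301069-118355740 on the minus strand. Mmp2, Mmp13 and Mmp14 together held 84.5% to 91.7% of the metalloproteinase sum in every library.

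**Figure D1:**
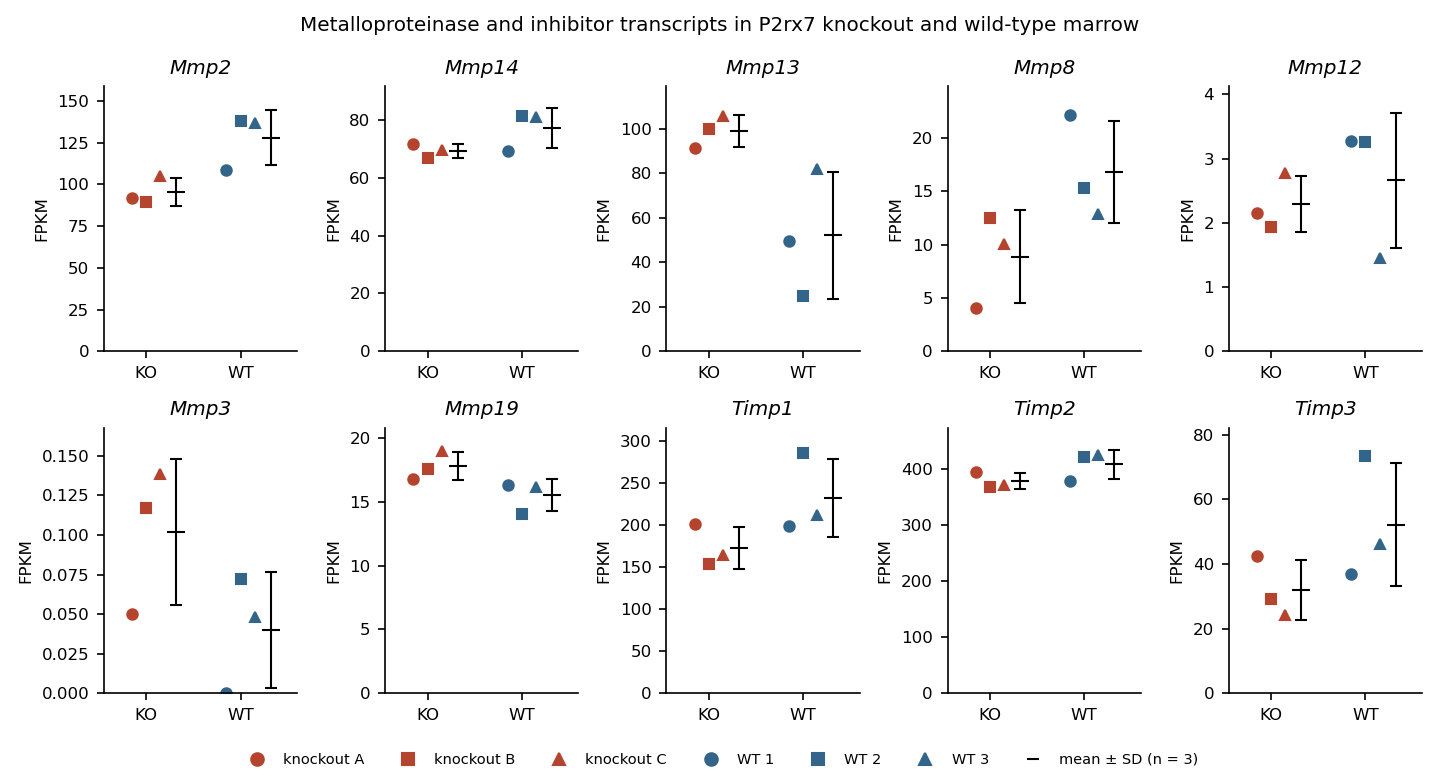
Level of each of the 10 genes in FPKM (y axis, from 0) in the 3 knockout libraries (left, red) and the 3 wild-type libraries (right, blue), with a symbol for each library and the mean ± SD beside them. Mmp13 lies higher in every knockout and Mmp2 and Mmp8 lie lower, while Timp1 of knockout A sits beside that of WT 1.

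No member passed the test across all genes. In edgeR's quasi-likelihood test 0 of the 9 members that passed the low-count filter had a Benjamini-Hochberg adjusted p below 0.05, where 0.103% of the 15478 tested genes did, 0.0581% higher and 0.0452% lower in knockouts. At an unadjusted p below 0.05 there were 6, of which 2 (Mmp13 and Mmp19) had higher and 4 (Mmp2, Mmp8, Timp1 and Timp3) lower knockout levels; over all tested genes 16.6% reached that p, 8.35% higher and 8.22% lower. DESeq2 called Mmp2 and Timp1, where it called 3.2% of all tested genes, and limma on log2(FPKM + 1) called 0 members, where it called 0.0646% of all tested genes. The median log2 fold change of the 9 was -0.21, beside 0.00 over all tested genes. The TMM-scaled CPM (counts scaled to library size) of the genotypes did not overlap in 5 of the 9, 2 of them higher and 3 lower in knockouts, where 21.9% of all tested genes did not overlap, 11.5% higher and 10.4% lower. These genes were picked with earlier results of the same libraries known, so the counts describe the members and are no separate evidence.

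**Figure D2:**
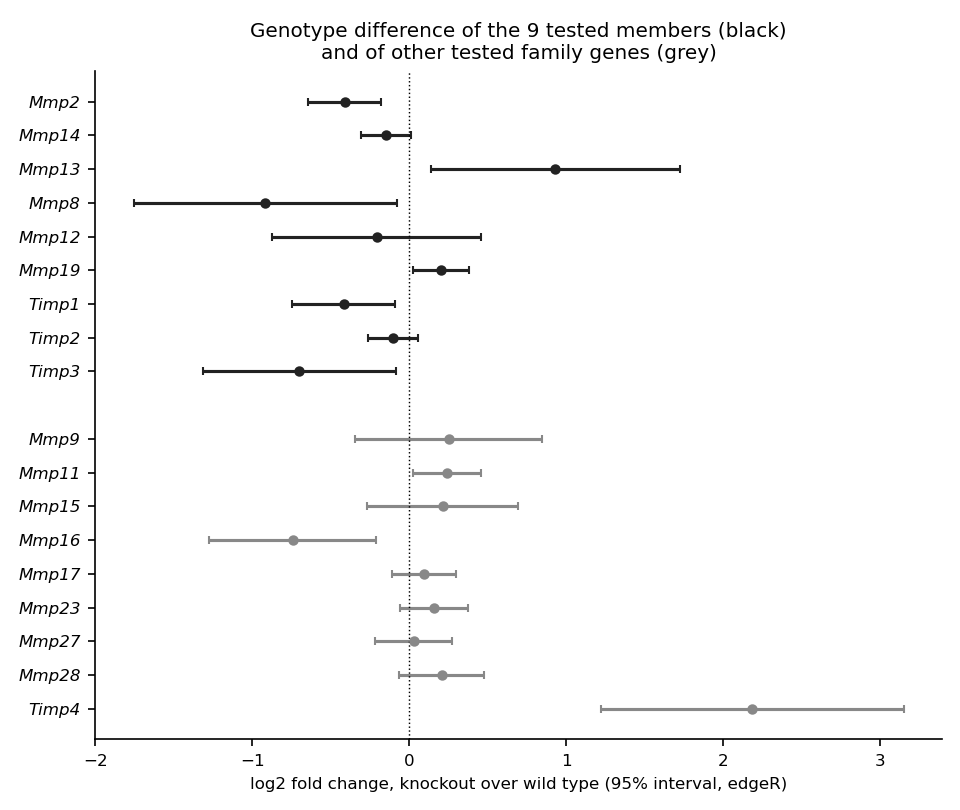
Log2 fold change of knockout over wild type (x axis) with its 95% interval from the edgeR fit, for the 9 tested members (black) and the 9 other tested genes of the metalloproteinase and TIMP families (grey). Of the black intervals, those of Mmp2, Mmp8, Mmp13, Mmp19, Timp1 and Timp3 leave out 0, and none has an adjusted p below 0.05.

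The collagenase gene Mmp13 had the largest positive fold change of the tested members. It was at 91.4, 100.03 and 105.8 FPKM in knockouts A, B and C, against 49.5, 25.1 and 81.9 FPKM in WT 1, 2 and 3. Every knockout lay above every wild type, the knockouts were close together, and WT 2 was far below the other wild types. The knockout mean was 99.1 ± 7.26 and the wild-type mean 52.2 ± 28.5 FPKM (SD, n = 3). The fitted ratio was 1.91 (95% interval 1.10 to 3.31), a log2 fold change of 0.93 (SE 0.34, edgeR adjusted p = 0.245), and in an exact permutation test, two-sided, p was 0.1, the lowest value open to 3 against 3 libraries. The size rested on the wild types in use: it was 1.42 on the log2 scale without WT 3 (adjusted p = 0.0525) and 0.60 without WT 2 (adjusted p = 0.257).

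Mmp13 stands at one end of a run of 10 metalloproteinase genes on chromosome 9 (7272514 to 7699585, GRCm38), of which Mmp13, Mmp12, Mmp8 and Mmp27 passed the filter and Mmp1a, Mmp7 and Mmp20 had 0 counts throughout. The genes of this run differ in level, and none passed the test between genotypes. The 250 bases before the RefSeq start (GRCm38.p6, plus strand) are given for Mmp13, the nearly silent Mmp3 and the neutrophil collagenase gene Mmp8. They are a description, and whether these letters bear on the levels was not tested. Capitals mark AP-1 motifs (TGAGTCA), RUNX motifs (AACCACA) and TATA motifs (TATAAA), searched on both strands, and no marked motifs overlap.
Mmp13 (chr9:7272264-7272513): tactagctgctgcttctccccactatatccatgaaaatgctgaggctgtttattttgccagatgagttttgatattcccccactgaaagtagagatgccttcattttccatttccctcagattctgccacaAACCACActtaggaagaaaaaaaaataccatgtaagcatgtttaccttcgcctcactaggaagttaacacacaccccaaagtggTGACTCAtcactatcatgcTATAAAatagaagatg
Mmp3 (chr9:7445572-7445821): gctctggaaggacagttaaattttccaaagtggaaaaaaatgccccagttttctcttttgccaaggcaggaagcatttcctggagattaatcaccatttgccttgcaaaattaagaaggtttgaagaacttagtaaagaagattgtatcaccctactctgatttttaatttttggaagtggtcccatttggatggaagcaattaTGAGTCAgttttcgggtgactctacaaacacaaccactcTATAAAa
Mmp8 (chr9:7558179-7558428): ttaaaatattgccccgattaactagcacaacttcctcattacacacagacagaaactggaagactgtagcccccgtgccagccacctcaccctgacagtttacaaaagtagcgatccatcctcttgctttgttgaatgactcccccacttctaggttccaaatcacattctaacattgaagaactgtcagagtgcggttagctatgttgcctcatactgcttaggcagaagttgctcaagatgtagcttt

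The Mmp13 window holds all 3 motifs: the AP-1 motif on the minus strand begins 35 bases before the start, the RUNX motif 119 bases and the TATA motif 16 bases before it. Mmp3 has an AP-1 motif that begins 46 bases before its start, and the letters TATAAA 7 bases before it. The Mmp8 window holds none of these letters. Over all 32851 windows of the same length, 4.46% hold TGAGTCA, 4.40% hold AACCACA and 12.4% hold TATAAA. Of the 10 members, 8 had a window, and these 8 had 9 windows, of which 3 held the AP-1 motif (Mmp3, Mmp13 and the second window of Mmp12) and 1 the RUNX motif. A match is a stretch of letters and does not show binding.

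The levels of genes for AP-1, RUNX and other factors known to act on metalloproteinase promoters are given beside these letters. None of the 11 listed genes passed the test in edgeR. At an unadjusted p below 0.05, 2 were higher and 3 lower, where 8.35% and 8.22% of all tested genes were. The 3 with the highest levels were Junb at 97.4 ± 4.46 and 104 ± 9.19 FPKM, Fos at 55.3 ± 5.27 and 57.1 ± 11.2 FPKM and Jund at 43.6 ± 2.80 and 48.5 ± 2.43 FPKM (knockouts and wild types in that order, SD, n = 3). Runx2, the factor of osteoblast fate, and Sp7, which acts after it, were chosen after their values were seen. Runx2 was at 7.14, 7.22 and 6.72 FPKM in knockouts, against 7.19, 7.49 and 8.29 FPKM in wild types, and Sp7 at 20.5, 25.6 and 20.6 FPKM, against 16.5, 11.4 and 17.8 FPKM.

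Markers of marrow stroma lay in the same direction as Mmp13. The summed CPM of 10 stromal genes was 6123, 7208 and 6843 in knockouts A, B and C, against 4319, 2376 and 4773 in WT 1, 2 and 3. All 10 genes had positive fold changes, with a median log2 value of 0.76. In edgeR 6 of the 10 were higher at an unadjusted p below 0.05, where 8.35% of all tested genes were, and 0 passed the adjusted threshold. The most abundant of the 10 is Cxcl12, the chemokine that holds blood progenitors in the marrow, at 494, 594 and 571 FPKM in knockouts, against 328, 164 and 388 FPKM in wild types. The order of the wild types, WT 3 above WT 1 above WT 2, was the same for Mmp13 and Cxcl12. Per 1000 counts of Cxcl12 there were 60.5, 55.1 and 60.6 counts of Mmp13 in knockouts, against 49.4, 50.2 and 68.9 in wild types, a mean of 58.7 ± 3.13 and 56.2 ± 11.05 (SD, n = 3), and the genotypes overlapped. Per 1000 counts of Alpl, the alkaline phosphatase gene of osteoblasts, the values were 668, 625 and 753 in knockouts, against 568, 463 and 684 in wild types, which also overlapped. Set against the leptin receptor gene Lepr the order was the other way: 11810.0, 11948 and 9111 counts of Mmp13 per 1000 counts of Lepr in knockouts, against 15177, 19198 and 15293 in wild types. Of 6 such ratios, which also took in Sp7, Ebf3 and Kitl, the genotypes overlapped in 5, with a higher mean in knockouts in each of these, and were apart for Lepr. These genes were chosen after values were seen, and the part of stromal content in the Mmp13 values was not tested. Chondrocyte markers lay the other way in sum. The 10 genes summed to 301, 265 and 264 CPM in knockouts, against 499, 391 and 345 CPM in wild types, and most of this was Col2a1. Of the 7 tested, 3 had positive and 4 negative fold changes, and 0 passed in edgeR. The part of chondrocyte content in the Mmp13 values was not tested.

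**Figure D3:**
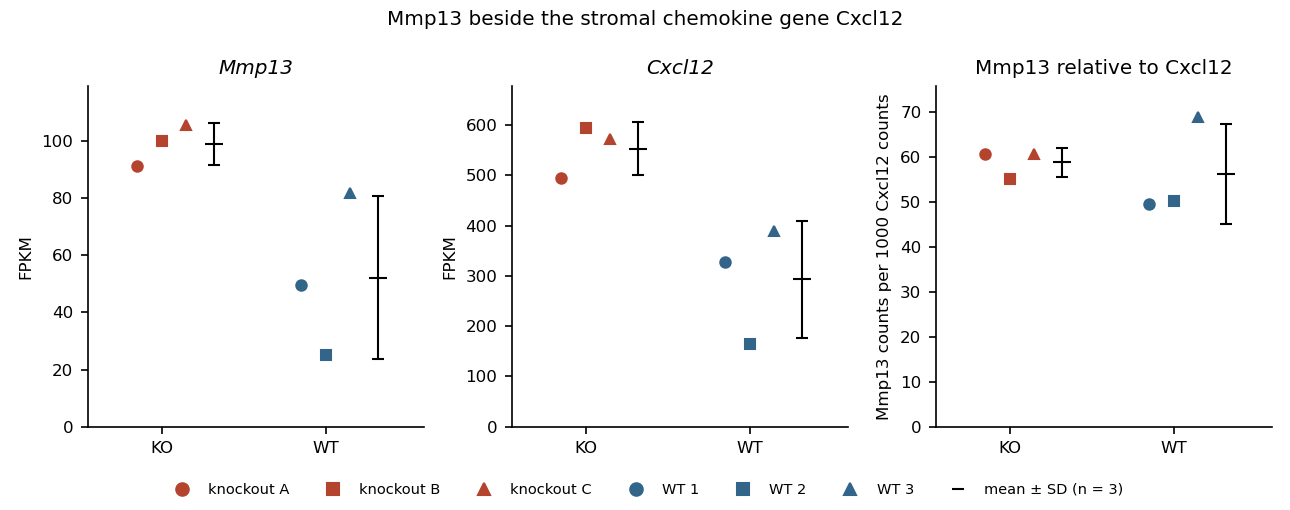
Mmp13 (left) and Cxcl12 (middle) in FPKM, and Mmp13 counts per 1000 Cxcl12 counts (right), each from 0, in knockouts (red) and wild types (blue), with the mean ± SD. The genotypes are apart for each gene by itself and overlap for the ratio, where the knockouts lie at 55.1 to 60.6 and the wild types at 49.4 to 68.9. Cxcl12 is 1 of 6 genes that Mmp13 was set against, chosen after values were seen. In 5 of these ratios the genotypes overlap with the higher mean in knockouts. For Lepr they are apart, with the lower mean in knockouts. The part of stromal content was not tested.

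Among all 13824 other tested genes with a mean of at least 1 CPM, the 3 whose centred log2 CPM over the 6 libraries lay nearest to that of Mmp13 were Gm43618, Fgfr3 and Ednra, with root-mean-square differences of 0.0749, 0.0755 and 0.0820. Fgfr3 is a fibroblast growth factor receptor of cartilage and bone, and Ednra is an endothelin receptor. Ednra had 33.4, 41.3 and 40.4 CPM in knockouts, against 20.8, 10.4 and 30.2 CPM in wild types. For none of the 3 did the adjusted p fall below 0.05 (0.221 to 0.244, edgeR). The 3 were chosen by profile, so values that run like those of Mmp13 follow from the choice. Gm43618 had few counts, from 11 in WT 2 to 49 in knockout C.

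The gelatinase gene Mmp2, the membrane collagenase gene Mmp14 and Timp2 encode the proteins of the activation complex for MMP2. Mmp2 was at 92.1, 89.5 and 105.1 FPKM in knockouts A, B and C, against 108.9, 138 and 137 FPKM in WT 1, 2 and 3. Each knockout lay below each wild type, with knockout C and WT 1 nearest to each other. The knockout mean was 95.6 ± 8.36 and the wild-type mean 128 ± 16.5 FPKM (SD, n = 3). The summed CPM of 9 osteoblast markers was 8852, 8408 and 8993 in knockouts, against 8897, 10806 and 10739 in wild types, and nearly all of it was Col1a1. The other 8 markers summed to 550.0, 694 and 591 CPM in knockouts, against 383, 260.5 and 532 CPM in wild types, and so lay higher in knockouts. This split from Col1a1 was made after the values were seen. Of the 6 osteoblast markers tested, 4 had positive fold changes, with a median log2 value of 0.38, and their part in the Mmp2 values was not tested. Mmp2 had the smallest p of the members: the fitted ratio was 0.752 (95% interval 0.641 to 0.883), a log2 fold change of -0.41 (SE 0.10, edgeR adjusted p = 0.159). DESeq2 gave a log2 fold change of -0.42 and an adjusted p of 0.0029, so the call depends on the tool.

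Mmp14 and Timp2 differed less. Mmp14 was at 71.5, 66.7 and 69.5 FPKM in knockouts, against 69.3, 81.2 and 81.0 FPKM in wild types, with WT 1 among the knockouts. Its log2 fold change was -0.15 (SE 0.07, edgeR adjusted p = 0.324). Timp2, the most abundant member, was at 394, 368 and 371 FPKM in knockouts, against 378, 420.3 and 425 FPKM in wild types. The genotypes overlapped, and the log2 fold change was -0.10 (SE 0.07, 95% interval -0.26 to 0.05, edgeR adjusted p = 0.484). Mmp14 and Timp2 kept nearly the same proportion: the ratio of their FPKM was 0.181, 0.181 and 0.187 in knockouts and 0.183, 0.193 and 0.191 in wild types. That of Mmp2 to Mmp14 was 1.29, 1.34 and 1.51 in knockouts and 1.57, 1.70 and 1.69 in wild types, without overlap. These ratios were not tested.

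The make-up of the metalloproteinase sum is given as a description, with no test. Mmp13 made up 32.9%, 34.7% and 33.9% of the sum in knockouts A, B and C, against 18.4%, 9.07% and 24.8% in WT 1, 2 and 3. Mmp2 made up 33.1%, 31.05% and 33.7% in knockouts, against 40.4%, 49.8% and 41.4% in wild types. In knockouts the Mmp13 level was thus close to that of Mmp2, at 0.992, 1.12 and 1.01 times its FPKM, against 0.455, 0.182 and 0.599 times in wild types.

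**Figure D4:**
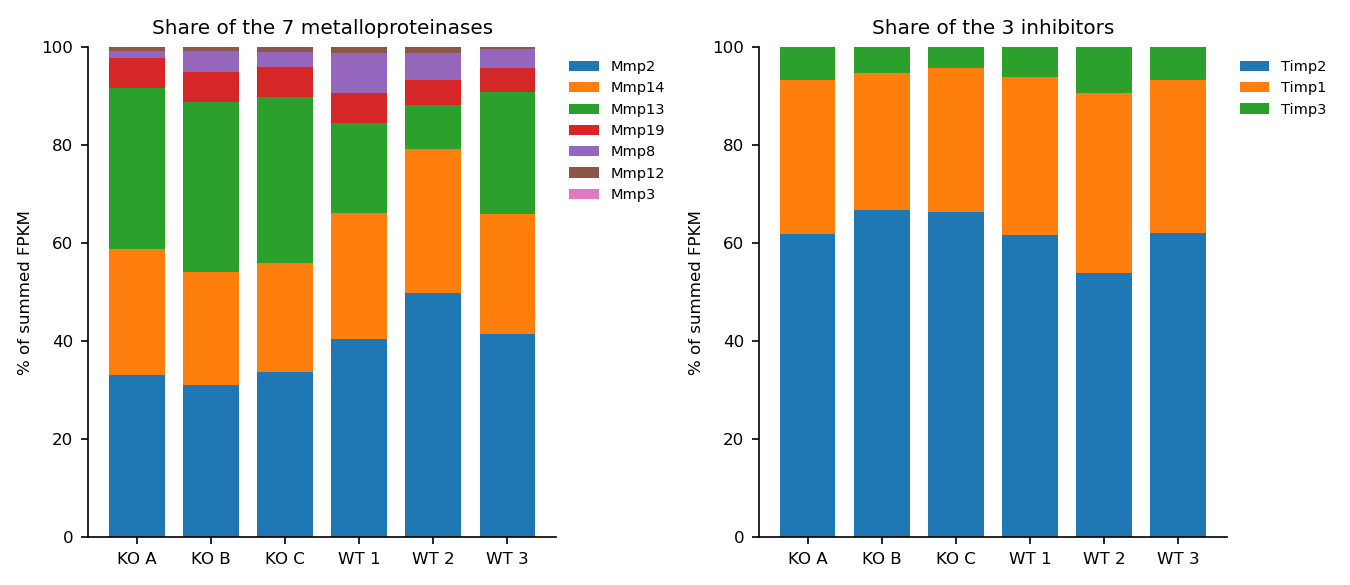
Share of each gene, in percent of the summed FPKM (y axis, 0 to 100), of the 7 metalloproteinases (left panel) and of the 3 inhibitors (right panel) in the 3 knockout libraries followed by the 3 wild-type libraries. The Mmp13 share is 32.9% to 34.7% in knockouts and 9.07% to 24.8% in wild types, and Timp2 holds 54.0% or more of the inhibitor sum in every library.

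The inhibitor genes Timp1 and Timp3 had lower means in knockouts, and WT 2 was their highest library. Timp1 encodes the secreted inhibitor that many cells induce on stimulation. It was at 201, 153 and 164 FPKM in knockouts A, B and C, against 199, 285 and 212 FPKM in WT 1, 2 and 3. Whether its genotypes overlapped turned on the scaling: in the deposited FPKM knockout A was above WT 1, and in TMM-scaled CPM of the tested genes it was below, at 177.47 CPM in knockout A and 177.49 CPM in WT 1. The log2 fold change of Timp1 was -0.42 (SE 0.14, edgeR adjusted p = 0.221), against an adjusted p of 0.0392 by DESeq2. It was -0.25 without WT 2, and -0.22 with knockout A as the only knockout.

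Timp3 encodes the inhibitor that binds to the matrix and also blocks ADAM17, the protease that sheds TNF. It was at 42.4, 29.1 and 24.4 FPKM in knockouts, against 36.9, 73.5 and 46.3 FPKM in wild types. Knockout A lay above WT 1, so the genotypes overlapped. The fitted ratio was 0.615 (95% interval 0.402 to 0.943), a log2 fold change of -0.70 (SE 0.27, edgeR adjusted p = 0.255). This log2 value was -0.38 without WT 2, -0.95 without knockout A and -0.31 with knockout A as the only knockout. Timp3 shares 1733 exon bases with Syn3 on the other strand, but Syn3 had at most 15 counts in a library. The nearest profiles to that of Timp3 were those of Prkg2, Nxph4 and Arhgdig, with root-mean-square differences of 0.101 to 0.151 on the log2 scale. Prkg2, which encodes a cGMP-dependent protein kinase, was likewise highest in WT 2, at 6.47 CPM, and lowest in knockout C, at 1.91 CPM. That follows from its choice by profile and is no separate evidence.

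Mmp8 had the largest negative fold change of the members. It was at 4.10, 12.5 and 10.05 FPKM in knockouts A, B and C, against 22.1, 15.4 and 12.9 FPKM in WT 1, 2 and 3. All knockouts lay below all wild types, with knockout B close below WT 3. The fitted ratio was 0.530 (95% interval 0.296 to 0.949), a log2 fold change of -0.92 (SE 0.36, edgeR adjusted p = 0.269). Knockout A carried much of it: the log2 value was -0.56 without knockout A and -2.04 with knockout A as the only knockout (adjusted p = 0.287 and 0.742).

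The neutrophil genes did not all lie in the same direction. Of 13 tested, 9 had negative fold changes, as Mmp8 had, and the median log2 value was -0.23. The 4 with positive fold changes were Mpo, Elane, Prtn3 and Ctsg, which encode proteins of the primary granules that form early in the lineage. These 4 summed to 77.9, 469 and 357 CPM in knockouts A, B and C, against 58.8, 28.2 and 193 CPM in WT 1, 2 and 3. The genotypes overlapped in this sum. The other 10 summed to 60.6, 333 and 329 CPM in knockouts, against 388, 132 and 443 CPM in wild types, and the genotypes overlapped. The split was made after the values were seen and follows the sign of the fold change. The opposite directions of the parts are thus set by the split and are no result. Mmp8 counts were also set against those of Ltf, Camp, Ngp, Cd177, Lcn2 and S100a8, and all 6 ratios overlapped between the genotypes. The mean ratio was lower in knockouts for 5 of the 6, as with Lcn2 at 841 ± 99.96 counts of Mmp8 per 1000 in knockouts and 1624 ± 979 in wild types, and higher for Ltf, at 2710 ± 1384 in knockouts and 2112 ± 985 in wild types (SD, n = 3). The genes nearest to Mmp8 in profile were Lockd, G6pd2 and Gpr141, at root-mean-square differences of 0.402, 0.425 and 0.433, far wider than for Mmp13 or Timp3. The part of neutrophil content in the Mmp8 values was not tested.

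Mmp12 and Mmp19 are metalloproteinase genes of macrophages among other cells, and Mmp12 encodes the macrophage elastase. Mmp12 was at 2.15, 1.94 and 2.78 FPKM in knockouts, against 3.27, 3.27 and 1.45 FPKM in wild types. WT 3 was below all knockouts and the other wild types above them, and the log2 fold change of -0.21 ± 0.29 had an interval of -0.87 to 0.46 (adjusted p = 0.764, edgeR). Without WT 3 it was -0.51, and without WT 1 or without WT 2 it was -0.03. Mmp12 shares 157 exon bases with Mmp1b, which had at most 1 count.

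Mmp19 was at 16.8, 17.5 and 18.97 FPKM in knockouts, against 16.3, 14.04 and 16.1 FPKM in wild types. The knockouts lay above the wild types by a narrow margin, with a log2 fold change of 0.20 (SE 0.08, edgeR adjusted p = 0.255), and with knockout A as the only knockout it was 0.11. Mmp19 shares 789 exon bases with Tmem198b on the other strand, which had up to 478 counts in a library, as much as 41.6% of the Mmp19 count. The use of strand in counting is not given, so reads of the shared bases cannot be told apart and the Mmp19 level is less certain. The summed CPM of 14 macrophage markers was 12116, 12021 and 10934 in knockouts A, B and C and 11114, 10482 and 10884 in WT 1, 2 and 3. Of the 13 tested, 8 had positive and 5 negative fold changes. In edgeR 2 of the 13 passed the test as lower in knockouts, where 0.0452% of all tested genes did, and 0 as higher. The part of macrophage content in the Mmp12 and Mmp19 values was not tested.

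Mmp3, which encodes stromelysin 1, an activator of other metalloproteinases, was at the limit of detection. It had 2, 4 and 5 counts in knockouts, against 0, 3 and 2 counts in wild types, did not pass the filter and was not tested. A count of 0 in WT 1 allows up to 3 counts, or 0.150 CPM, which covers counting error alone.

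**Figure D5:**
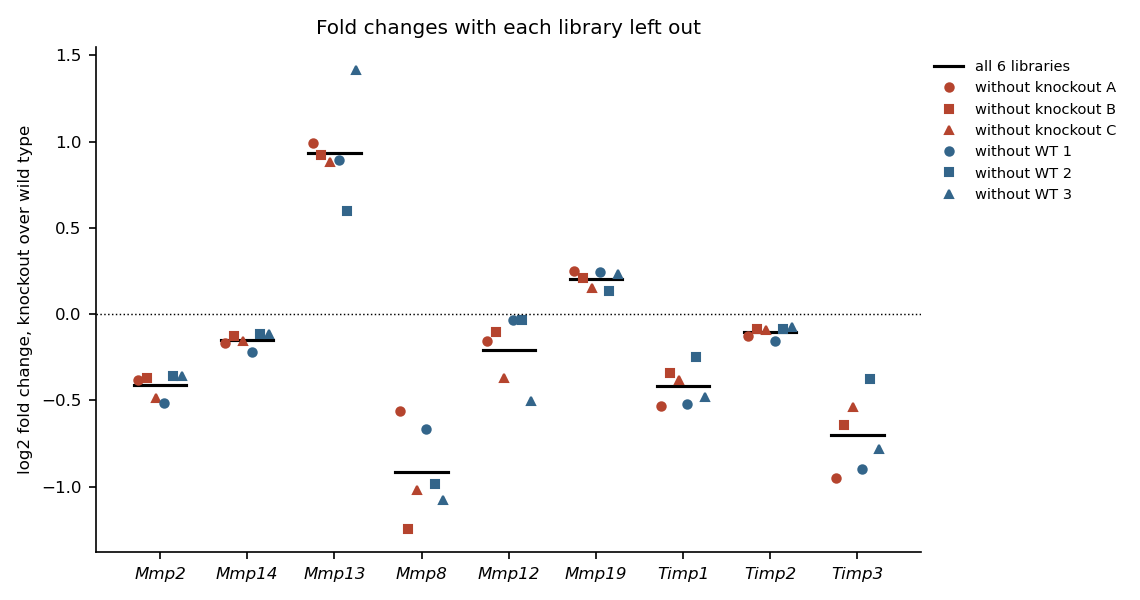
Log2 fold change of knockout over wild type (y axis) of the 9 tested members in the fit of all 6 libraries (black bars) and with each library left out in turn (red, a knockout left out; blue, a wild type left out). The sign stays the same in all 6 of these fits for every gene, while Mmp13 runs from 0.60 to 1.42 and Mmp8 from -1.25 to -0.56. The fits share most of their libraries, so the kept sign is no separate evidence.

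The rest of the family held 17 more genes, of which 9 passed the filter and 0 passed the test. At an unadjusted p below 0.05, 2 were higher and 1 lower, where 8.35% and 8.22% of all tested genes were. The most abundant were Mmp23 at 49.5 ± 1.49 and 44.6 ± 6.03 FPKM, Mmp11, which encodes stromelysin 3, at 17.8 ± 1.64 and 15.1 ± 1.48 FPKM, and Mmp27 at 4.99 ± 0.315 and 4.92 ± 0.508 FPKM (knockouts and wild types in that order, SD, n = 3). Mmp9, the gelatinase gene of osteoclasts and neutrophils, was low in all libraries, at 1.21, 1.21 and 1.94 FPKM in knockouts, against 1.37, 0.867 and 1.45 FPKM in wild types. Named after its values were seen, Timp4, the remaining inhibitor gene, had 109, 132 and 70 counts in knockouts, against 31, 10 and 33 counts in wild types, a log2 fold change of 2.19 (SE 0.42, edgeR adjusted p = 0.117). The other 2 at an unadjusted p below 0.05 were Mmp11 and Mmp16, with log2 fold changes of 0.24 and -0.74.

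Genes that act before, beside or after the metalloproteinases were listed by role, and Mmp13, Mmp2 and the TIMP genes are read here beside them. Over these lists and the rest of the family, 0 of 79 tested genes passed in edgeR, where 0.103% of all tested genes did. At an unadjusted p below 0.05 there were 16 higher and 17 lower, where 8.35% and 8.22% of all tested genes were. The lists were chosen with earlier results of these data known, so the counts are a description. DESeq2 called 12, beside 3.2% of all tested genes, and limma on log2(FPKM + 1) called 0. In the list of activation and control, with 17 tested, the median log2 fold change was -0.08, with 4 higher and 4 lower at an unadjusted p below 0.05. Among its most abundant genes were Bsg, which encodes an inducer of metalloproteinases, at 298 ± 4.80 FPKM in the knockouts and 316 ± 12.8 in the wild types, and Lrp1, the receptor that clears metalloproteinases, at 134 ± 12.96 and 151 ± 11.4 FPKM (SD, n = 3).

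The related ADAM and ADAMTS proteases had a median of -0.04 over 19 tested genes, with log2 fold changes from -0.83 to 1.54. Of the 19, 4 were higher and 3 lower at an unadjusted p below 0.05, where 8.35% and 8.22% of all tested genes were. The lowest adjusted p was 0.0994 (edgeR). Adam8, Adam9 and Adam15 were the most abundant, with log2 fold changes of -0.05, -0.02 and -0.07. Of the matrix proteins that metalloproteinases cleave, 23 were tested, with a median of -0.00 and log2 fold changes from -0.99 to 1.41. At an unadjusted p below 0.05, 4 were higher and 6 lower, and the lowest adjusted p was 0.0619 (edgeR). Col1a1 was at 1270, 1165 and 1272 FPKM in knockouts, against 1289, 1620 and 1559 FPKM in wild types (log2 fold change -0.26, adjusted p = 0.280, edgeR). Sparc, which encodes a collagen-binding protein, had a log2 fold change of 0.02 and Bgn, the gene of the proteoglycan biglycan, one of 0.04. Set against Col1a1, Mmp2 had 37.2, 39.5 and 42.5 counts per 1000 Col1a1 counts in knockouts, against 43.4, 43.8 and 45.01 in wild types, without overlap. This ratio was not tested, and taken singly 21.9% of all tested genes did not overlap between the genotypes.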

How the data were processed

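The authors deposited raw counts and FPKM values per gene symbol, with exon positions and summed exon length. Per the submitters' processing notes the build was GRCm38 (mm10). The sources used here name no aligner, counter or strand setting. Each deposited FPKM above 0 was the count divided by length and by 1 scaling value per library, within a relative error of 1e-06. The other deposited column used, gene length, is in bases.

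Counts were analysed with edgeR 4.0.16 in R 4.3.3 (filterByExpr, TMM, glmQLFit, glmQLFTest, two-sided; 15478 genes tested; Benjamini-Hochberg adjustment over all of them, threshold 0.05). The script was run on simulated counts with known changes and the same dispersion for every gene. This checks the code and not its power on these libraries. Alternatives used DESeq2 1.42.0, limma 3.58.1, other scalings, no filter, each library left out, knockout A as the only knockout, and a term for knockouts B and C. The exact permutation test used mean log2 CPM with a prior count of 2. Groups came from the genotype labels. The design text says that the mice were different animals.

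All members were named. From each related list the 3 genes of highest level were named, since none passed (1 gene of the activation list is not reported here), and for the 3 members with the largest spread the 3 nearest profiles. Marker lists are given as summed CPM. The members, lists and alternatives were chosen with earlier results of these data known. Sequences are from RefSeq (GRCm38.p6).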

Additional observations from a re-analysis of the deposited data

How the results depend on the processing

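Every tested member kept its direction in all 15 alternative fits. These fits reuse the same libraries, in whole or in part, so a kept direction is no separate evidence. Where the genotypes did not overlap, leaving out a library could hardly change the sign. No member passed in any fit with a library left out. The number of genes called over the whole table was 16 and moved most: it was 970 without the filter, 496 by DESeq2, 10 and 2 by limma with pseudocounts of 1 and 0.1, 0 with the 4 libraries that hold Gh counts and 0 with a term that sets knockouts B and C apart, and 0 to 172 with each library left out. Members called numbered 5 without the filter (Mmp2, Mmp8, Mmp13, Timp1 and Timp3) and 2 by DESeq2, against 0, where each of these fits called 3.2% of the genes it tested; genes of the related lists called numbered 22 and 12 in these fits, against 0, and 0 to 4 with a library left out. Members whose genotypes did not overlap numbered 4 to 8 with a library left out, against 5, while the share of all tested genes without overlap was 27.3% to 40.1% in those fits, against 21.9%. The cause was not tested. With knockout A as the only knockout a fit takes its spread from the wild types. Low counts kept Mmp3 out of the test, at 0 to 5 per library. No paired analysis was possible because the labels number WT mice and letter the others, with nothing that pairs them.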
